A study of Mus musculus with 6 samples.

Results

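A set of 10 genes of the synaptonemal complex and of meiotic cohesin was followed in mouse primordial germ cells made in culture, in which the germ cell RNA-binding protein gene Dazl had been knocked down. The members were chosen by their known roles, but with earlier results of these data known. Sycp1, Syce1, Syce2 and Tex12 belong to the central region and Sycp2, Sycp3 and Hormad1 to the chromosome axis. Rec8, Smc1b and Stag3 belong to meiotic cohesin. The members are 10 of the 20220 genes tested. All 16 of their probes were looked at, including 3 probes listed under the older symbol 4930518F03Rik of Sycp2 and 2 under Rec8L1 of Rec8. Of these, 14 were well above background on 2 or more arrays, as the filter asks, and every member kept at least 1 probe. The other 2, A_51_P265794 of Sycp2 and A_52_P1091857 of Tex12, were not well above background on any array and give no difference. Where a member had several probes, the brightest stood for the gene.

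The cells were male, of a C57BL/6 129SV mixed strain, and came from Oct4-GFP embryonic stem cells, in which a transgene marks Oct4 (Pou5f1) activity with GFP. They carried hairpin 1 or hairpin 2 against Dazl (labelled sh1 and sh2) or a control vector, each with a tdTomato marker. The scanner files number these hairpins 2 and 3, in the same order on both days, and the numbers used here follow the sample titles. After removal of feeder cells, they were kept on gelatin in differentiation medium for 9 or 12 days, and cells positive for both GFP and tdTomato were sorted. The 6 groups of cells, hairpin 1, hairpin 2 and control vector at day 9 and the same at day 12, gave 1 one-colour array each, so the hairpins are the only replicates of a knockdown and each day has 1 control array. The labels do not say that samples came from separate cultures, and p-values cover only the spread between these samples. The sort rests on the Oct4 reporter and not on a gene specific to germ cells.

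The synaptonemal complex is a protein ladder that joins the paired chromosomes of a germ cell in meiosis. Its rails are built on the axes of the chromosomes, where SYCP2 and SYCP3 lie on loops held by cohesin rings with the meiotic subunits REC8, SMC1B and STAG3, and SYCP1 and the central element proteins form the rungs. In the embryo, germ cells switch on many of these genes around the time they reach the gonad, and before that their promoters are held silent by DNA methylation and by a Polycomb complex that contains E2F6, MGA and MAX. STRA8, with its partner MEIOSIN, raises meiotic genes whenever germ cells enter meiosis, a time that differs between the sexes.

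Levels are given as the log2 of an array's processed signal minus the log2 of that array's 75th percentile, so that a level of 0 lies at the 75th percentile of all spots. The 75th percentile itself ranged from 642.0 to 760.0 signal units over the 6 arrays, and 70.7% to 73.7% of spots were well above background. Levels of different probes are not comparable, so the genes are described by differences of a probe between arrays, and sums over marker lists serve only to set the same probes side by side on different arrays. Dazl, the target, had levels of -3.08 and -2.30 with hairpins 1 and 2 at day 9, against 1.29 with the control vector, on probe A_52_P271166. At day 12 it had -2.27 and -1.86 with the hairpins, against 2.55 with the control vector. Signal with the hairpins was thus 3.53% to 8.29% of the control of the same day on that probe and at most 4.45% on probe A_51_P246060. The log2 difference was -4.30 (SE 0.29) with a limma adjusted p of 0.0874 over genes, and -4.72 (SE 0.17) with an adjusted p of 0.00453 over probes for A_51_P246060. With the vector as a replicate block the gene-level limma adjusted p was 0.0105. That fit gives each vector its own mean, so its error leaves out the spread between the hairpins.

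Of 9 listed germ cell markers, 8 were analysed and all 8 were well above background on every array. Their summed level, in units of the 75th percentile, was 50.6 to 54.7 on knockdown arrays and 50.3 to 55.1 on control arrays. Knockdown minus control, 6 of the 8 were below 0 in the fit and 2 above (median -0.12). Dppa3, a gene of early germ cells, had a log2 difference of -0.62 (SE 0.28, limma adjusted p 0.533), and Pou5f1, the gene of the sort's reporter, had 0.69 (SE 0.15, limma adjusted p 0.280). Endoderm markers summed to 1.67 to 2.56 on knockdown arrays and 0.951 to 1.01 on control arrays, with all 7 measured markers above their control in the fit, and Ttr not well above background on any array. Fibroblast or feeder markers summed to 3.28 to 7.83 on knockdown arrays and 1.99 to 5.27 on control arrays, again with all 7 above control in the fit. Of these 2 lists, Cer1 and Lox were well above background on knockdown arrays only, so the filter favoured their direction. Over all genes, 50.4% were below control in the fit. Endothelial markers summed to 0.867 to 1.52 and 0.936 to 1.29 on knockdown and control arrays, gonadal somatic markers to 0.22 to 0.253 and to 0.313, and at most 1 of the 4 blood markers was above background. Of the 5 gonadal somatic markers, 3 were below and 2 above control in the fit (median -0.06), with Sox9 at -1.11 (SE 0.19, limma adjusted p 0.197) and Foxl2 at 0.52 (SE 0.20). The part of these other cell types in the differences below was not tested.

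Over both days together, all 10 genes had lower average levels in knockdown cells than in control cells, and none passed the test over all genes. The median log2 difference, knockdown minus control with day as a term, was -0.53 over the members and -0.00 over all 20220 genes. In this fit the transverse filament gene Sycp1 and the lateral element gene Sycp2 were furthest below control, at 2.59-fold and 2.06-fold lower. The cohesin gene Rec8 followed at 1.71-fold lower. This order depends on the background correction, as given below. Stag3, also of cohesin, was nearest to control at 1.15-fold lower. In sorted cells measured in bulk, fewer cells that express a gene and less RNA in each cell cannot be told apart.

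A direction below 0 was shared by 50.4% of all genes, against 10 of 10 members. The members were chosen with earlier results of these data known, so counts set beside all genes describe them and are not a test. No gene at all passed an adjusted p of 0.05 in the knockdown contrast by limma (0% called), while 2012 genes had an unadjusted p under 0.05. Lower genes with an unadjusted p under 0.05 were 4.87% of all genes and 6 of the 10 members (Sycp1, Sycp2, Rec8, Tex12, Smc1b and Sycp3). When the vector was added as a replicate block, 20 genes passed (0.0989% called), none of them a member. In that fit the days of a vector act as its replicates, and the spread between hairpins is left out of the error. Its p-values thus do not cover how far the hairpins differ. The smallest adjusted p among the members were then 0.106 for Sycp2, 0.116 for Rec8 and 0.146 for Sycp1. With normexp background correction and an offset of 50 signal units, which narrows the differences of dim spots, the log2 differences of Sycp1, Sycp2 and Tex12 were -0.73, -0.35 and -0.39. Rec8 was then furthest below control, at -0.82, and Smc1b, at -0.63, lay further below than Sycp2.

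**Figure D1:**
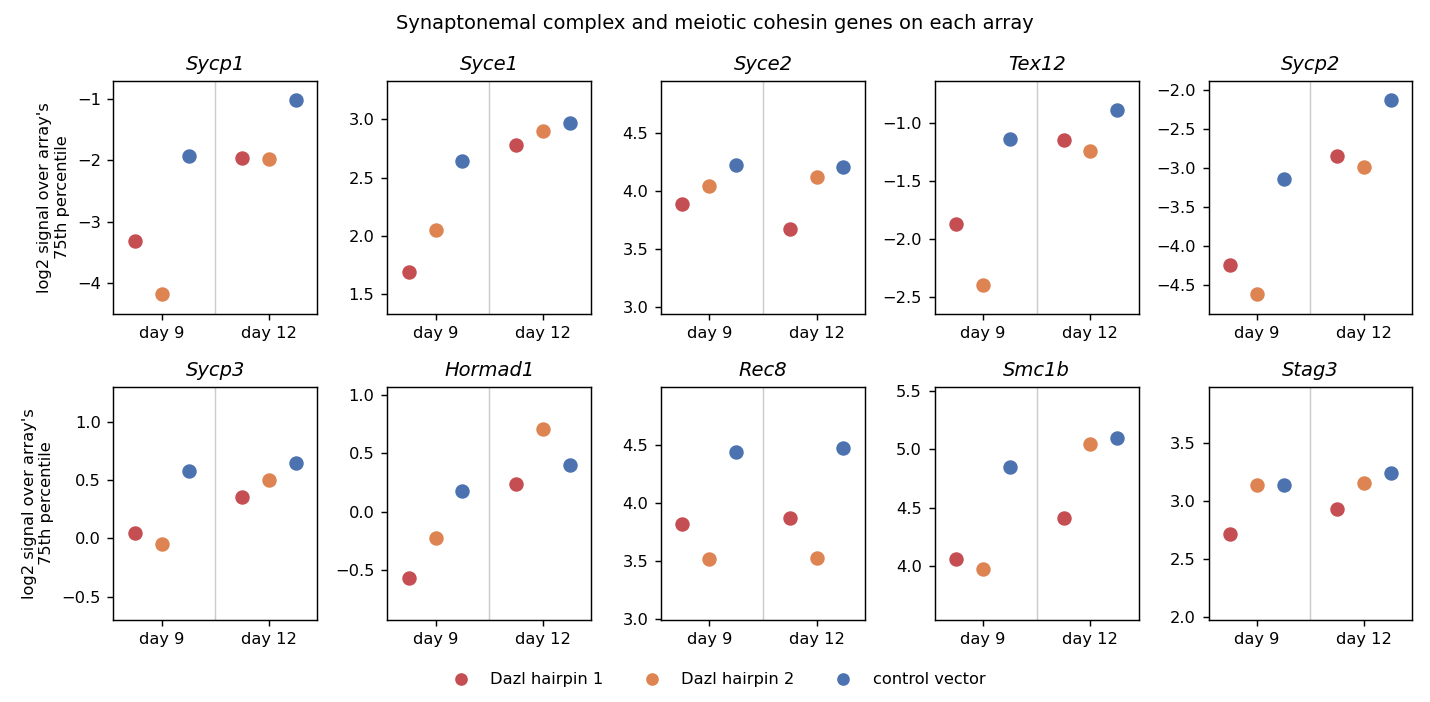
Level of each of the 10 genes on each of the 6 arrays, as log2 signal over the array's 75th percentile (vertical axis, each panel with its own range), at day 9 and day 12, with hairpin 1, hairpin 2 and the control vector from left to right in each day. The control point of day 12 is the highest of the panel for 8 genes, and a day 9 hairpin point is the lowest for all but Syce2. Some gaps are small, as for Rec8, with controls at 4.47 and 4.44. The share of all genes with these placings was not counted.

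Promoter sequences of all 10 members were found in RefSeq's annotation of GRCm38.p6, as windows of 300 bases from 250 before to 50 after a transcript start, and are printed in the direction of the gene for 5 of them. Sycp1 and Tex12 are shown because their windows hold all 3 motifs searched, Rec8 and Stag3 because they are the cohesin genes with the largest and smallest knockdown difference, and Sycp2 because it has a large difference and none of the motifs. Capitals mark a match on either strand to TCCCGC, the core of the site bound by E2F6, to CACGTG, the E-box bound by MGA with MAX, or to CNCCTCAG, the motif of STRA8 with MEIOSIN. A match on the opposite strand appears as the reverse complement. The Sycp1 window lies at chr3:102936051-102936350 on the minus strand, Tex12 at chr9:50561219-50561518 on the minus strand, Rec8 at chr14:55617916-55618215 on the plus strand, Stag3 at chr5:138280259-138280558 on the plus strand and Sycp2 at chr2:178407609-178407908 on the minus strand.
Sycp1: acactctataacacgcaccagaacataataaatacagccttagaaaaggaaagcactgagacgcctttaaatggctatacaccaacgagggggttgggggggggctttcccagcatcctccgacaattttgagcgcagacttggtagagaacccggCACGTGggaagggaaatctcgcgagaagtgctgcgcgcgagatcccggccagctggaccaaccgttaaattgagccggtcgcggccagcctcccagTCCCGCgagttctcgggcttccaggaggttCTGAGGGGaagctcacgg
Tex12: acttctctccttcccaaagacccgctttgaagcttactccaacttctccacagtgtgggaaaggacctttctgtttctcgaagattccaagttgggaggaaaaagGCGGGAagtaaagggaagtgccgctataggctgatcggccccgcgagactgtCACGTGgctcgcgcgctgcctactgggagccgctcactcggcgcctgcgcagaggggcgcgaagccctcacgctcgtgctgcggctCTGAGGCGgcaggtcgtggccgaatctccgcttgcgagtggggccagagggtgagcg
Rec8: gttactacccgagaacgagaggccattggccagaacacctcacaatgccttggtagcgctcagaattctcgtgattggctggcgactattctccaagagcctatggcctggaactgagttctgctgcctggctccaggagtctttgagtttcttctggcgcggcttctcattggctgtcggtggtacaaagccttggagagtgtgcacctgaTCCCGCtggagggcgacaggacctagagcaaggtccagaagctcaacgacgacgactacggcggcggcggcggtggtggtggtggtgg
Stag3: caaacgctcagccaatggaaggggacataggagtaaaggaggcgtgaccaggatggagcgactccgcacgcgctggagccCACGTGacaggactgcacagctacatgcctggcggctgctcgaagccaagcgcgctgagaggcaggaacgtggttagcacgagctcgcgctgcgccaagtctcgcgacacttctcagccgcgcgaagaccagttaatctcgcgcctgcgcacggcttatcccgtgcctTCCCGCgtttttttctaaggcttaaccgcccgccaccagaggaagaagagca
Sycp2: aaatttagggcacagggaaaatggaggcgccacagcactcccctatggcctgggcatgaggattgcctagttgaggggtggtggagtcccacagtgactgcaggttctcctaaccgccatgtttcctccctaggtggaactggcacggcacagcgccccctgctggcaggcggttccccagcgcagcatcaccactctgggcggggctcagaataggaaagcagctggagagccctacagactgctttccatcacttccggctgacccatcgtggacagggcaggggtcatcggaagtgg

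The E2F6 core was found in 8 of the 10 members, against 22% of the 27025 genes with such a window and 44.9% of the 10366 of them whose window is rich in CpG (observed over expected at least 0.6, a comparison added after the data were seen). The E-box was in 6 members, against 8.09% of all genes and 11.9% of the CpG-rich ones. The STRA8 and MEIOSIN motif was in Sycp1, Syce2 and Tex12, against 9.12% of all genes and 9.96% of CpG-rich ones. In Sycp1 the E-box runs from -94 to -89, the E2F6 core from 3 to 8 and the STRA8 and MEIOSIN motif from 33 to 40, counted in bases from the transcript start. In Tex12 the same motifs run from -93 to -88, from -145 to -140 and from -7 to 1. In Syce2 the STRA8 and MEIOSIN match, from -39 to -32, overlaps an E2F6 core from -34 to -29, so these 2 matches are not separate.

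Sycp2 and Syce1 hold none of the 3 motifs in these windows and had log2 knockdown differences of -1.04 and -0.45. Sycp1, Tex12 and Syce2, with all 3, had -1.37, -0.65 and -0.29. The members with and without the motifs thus overlap in their differences. Observed over expected CpG ran from 0.36 in Sycp2 to 1.08 in Smc1b, with a median of 0.38 over the 32851 windows of the table. A match in a window is a description of its letters and does not show binding.

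**Figure D2:**
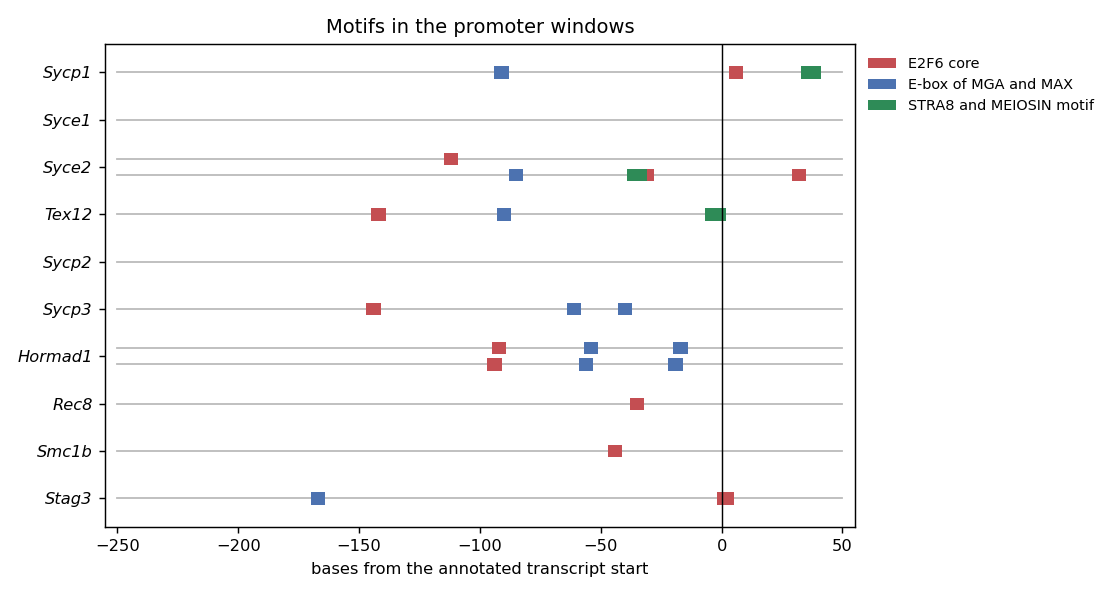
Position of each motif match (coloured boxes) along the 300-base promoter windows, in bases from the annotated transcript start (horizontal axis), with 1 line for each window of each gene. Syce1 and Sycp2 have no box, and Sycp1, Syce2 and Tex12 have all 3 colours.

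Among the central region genes, Sycp1 encodes the transverse filament that spans the gap between the paired axes. Its probe A_51_P340003 (chromosome 3) stood at -3.31 with hairpin 1 and -4.18 with hairpin 2 at day 9, against -1.94 with the control vector. At day 12 the levels were -1.97 and -1.99 with the hairpins, against -1.03 with the control vector. All 4 knockdown arrays were thus below both control arrays, with the day 12 knockdown levels close to the day 9 control. The signal was 38.7% and 21.1% of the control at day 9 with hairpins 1 and 2, and 52.5% and 51.5% at day 12. The log2 difference was -1.37 (SE 0.31, limma adjusted p 0.288).

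Syce1 (chromosome 7) encodes a central element protein that holds the ends of SYCP1 molecules together at the midline. Its levels were 1.69 and 2.05 with hairpins 1 and 2 at day 9, against 2.64 with the control vector, and 2.78 and 2.90 at day 12, against 2.97. Each hairpin array was below its own day's control, but both day 12 knockdown arrays were above the day 9 control, so the groups overlap. The knockdown signal was 51.8% and 66.1% of the control signal at day 9 and 87.6% and 94.9% at day 12. The log2 difference over both days was -0.45 (SE 0.20, limma adjusted p 0.533).

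Tex12 and Syce2 (chromosomes 9 and 8) encode partner proteins that assemble with each other into fibres of the central element. Tex12 stood at -1.87 and -2.39 with hairpins 1 and 2 at day 9, against -1.14 with the control vector, and at -1.15 and -1.24 at day 12, against -0.89, on probe A_51_P116609. The 4 knockdown arrays lay below both controls, and hairpin 1 at day 12 was only just below the day 9 control. A second Tex12 probe, A_52_P215798, ran the same way within each day, at -3.14 and -3.87 with the hairpins, against -2.37, at day 9, and -2.44 and -2.39, against -2.05, at day 12. The log2 difference of Tex12 was -0.65 (SE 0.23, limma adjusted p 0.449), and -0.75 on the second probe.

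Syce2, the partner of Tex12, stood at 3.89 and 4.04 with hairpins 1 and 2 at day 9, against 4.22 with the control vector, and at 3.67 and 4.12 at day 12, against 4.21. The 4 knockdown arrays were below both controls, with the lowest level on the hairpin 1 array of day 12. The log2 difference was -0.29 (SE 0.17, limma adjusted p 0.644), and whether it differs from that of Tex12 was not tested.

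Of the axis genes, Sycp2 and Sycp3 encode the main proteins of the lateral elements, and HORMAD1 coats axes that are not yet joined. Sycp2 (chromosome 2) stood at -4.25 and -4.62 with hairpins 1 and 2 at day 9, against -3.14 with the control vector, and at -2.85 and -2.98 at day 12, against -2.13, on probe A_52_P96542. Each knockdown array was below its own day's control, but the day 12 knockdown arrays were above the day 9 control. A dimmer Sycp2 probe, A_51_P274409, stood at -6.53 and -7.26, against -5.34, at day 9 and at -5.84 and -6.08, against -4.47, at day 12, and was not well above background with hairpin 2 at day 9. The log2 difference of Sycp2 was -1.04 (SE 0.19, limma adjusted p 0.220), and -1.52 on the dimmer probe.

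Sycp3 (chromosome 10) stood at 0.05 and -0.05 with hairpins 1 and 2 at day 9, against 0.58 with the control vector, and at 0.36 and 0.50 at day 12, against 0.65. All 4 knockdown arrays were below both controls, by a smaller margin at day 12, where the signal was 81.5% and 90.3% of control. Its log2 difference was -0.40 (SE 0.15, limma adjusted p 0.468), the smaller of the 2 lateral element genes in this fit. With normexp Sycp3 had -0.39 and Sycp2 -0.35. Hormad1 (chromosome 3) stood at -0.57 and -0.23 with the hairpins, against 0.18, at day 9 and at 0.24 and 0.71, against 0.40, at day 12, on probe A_51_P497875. Both hairpins were below control at day 9, whereas at day 12 hairpin 1 was below and hairpin 2 above it. The log2 difference of Hormad1 was -0.25 (SE 0.23, limma adjusted p 0.776). On the second Hormad1 probe, A_51_P497870, hairpin 2 lay at -1.72, against -1.73 for the control, at day 9, and at -0.97, against -1.25, at day 12, while hairpin 1 was below the control at both days.

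Of the cohesin genes, Rec8 encodes the meiotic kleisin subunit that is cut when chromosomes part, Smc1b a meiotic form of the ring's SMC1 arm, and Stag3 the subunit that binds the kleisin. Rec8 (chromosome 14) had levels of 3.82 and 3.52 with hairpins 1 and 2 at day 9, against 4.44 with the control vector, and 3.87 and 3.53 at day 12, against 4.47, on probe A_51_P246677. The groups did not overlap, and each vector gave nearly the same level at both days. Hairpin 2 stood lower than hairpin 1 each time, at 52.8% and 52.0% of control against 65.2% and 65.8% with hairpin 1. The log2 difference was -0.77 (SE 0.17, limma adjusted p 0.280). A second Rec8 probe, A_52_P459732, gave 1.25 and 1.69 with the hairpins, against 1.86, at day 9 and 1.38 and 0.90, against 2.04, at day 12, so that the order of the hairpins there was not the same on both days. Its log2 difference was -0.64.

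Smc1b (chromosome 15) stood at 4.06 and 3.97 with hairpins 1 and 2 at day 9, against 4.85 with the control vector, and at 4.41 and 5.05 at day 12, against 5.10. At day 12 hairpin 2 had 96.5% of the control signal, above the control level of day 9, and the groups overlap. The log2 difference was -0.60 (SE 0.22, limma adjusted p 0.464). Stag3 (chromosome 5) stood at 2.72 and 3.14 with the hairpins, against 3.14, at day 9 and at 2.93 and 3.16, against 3.24, at day 12. Hairpin 2 had 101% of the control signal at day 9, so the groups overlap. Its log2 difference was -0.20 (SE 0.17, limma adjusted p 0.751).

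Counted array by array, 8 members were lower with both hairpins on both days than in the control of the same day, against 17.1% of all genes; Stag3 and Hormad1 were not. All 4 knockdown arrays lay below both control arrays for 5 members (Sycp1, Sycp3, Syce2, Tex12 and Rec8), against 10.4% of all genes. The hairpins share the control array of their day, so the 2 differences from it are not independent. Median log2 differences were -0.55 over the 4 central region genes, -0.40 over the 3 axis genes and -0.60 over the 3 cohesin genes.

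**Figure D3:**
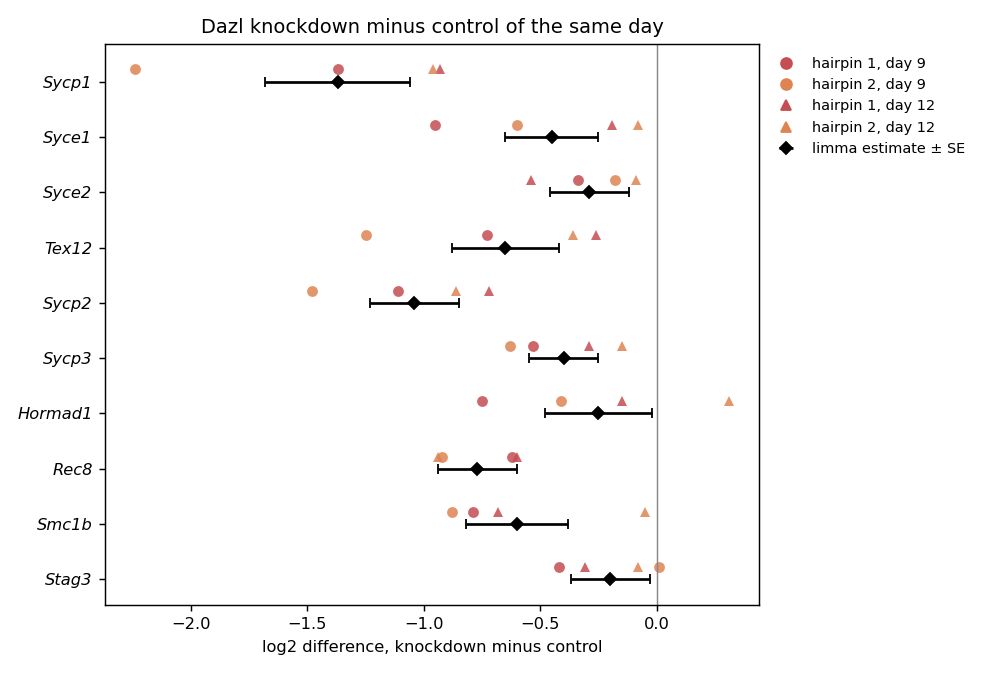
Log2 difference from the control array of the same day (horizontal axis) for each gene, with hairpin 1 and hairpin 2 at day 9 (circles) and at day 12 (triangles), and the limma estimate with its SE as a black diamond and bar. All 10 estimates lie below 0, from -1.37 for Sycp1 to -0.20 for Stag3, and single points lie above 0 for Hormad1 and Stag3 with hairpin 2.

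Within day 9 the members' median log2 difference, knockdown minus control, was -0.77, from -1.81 for Sycp1 to -0.20 for Stag3, beside -0.02 over all genes, and all 10 were below 0 against 52.8% of genes. Within day 12 the median was -0.31, from -0.94 for Sycp1 to 0.08 for Hormad1, beside 0.01, and 9 were below 0 against 48.7%. The day 12 median was -0.12 without hairpin 1 of that day and -0.43 without hairpin 2. Lower on both hairpin arrays were 9 members at day 9, against 33.3% of all genes, and 9 at day 12, against 36%. By limma 0% of genes passed at either day, with 868 at an unadjusted p under 0.05 at day 9 and 1021 at day 12. When the vector was added as a replicate block, 309 genes (1.53%) passed at day 9, among them Sycp1 (adjusted p 0.00238) and Sycp2 (adjusted p 0.0212), and 319 (1.58%) at day 12 with no member. That fit has 1 residual degree of freedom and gave the members nearly equal standard errors, 0.30 or 0.31 each, so its p-values rest on the spread over all genes rather than on that of the member.

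The difference of these effects, day 12 minus day 9, was above 0 for 8 of the 10 members, with a median of 0.49 beside 0.05 over all genes, of which 54.8% were above 0. With normexp the median was 0.17 over the members, and 0.29 relative to the median of all genes. It was 0.86 for Sycp1 (SE 0.56), 0.68 for Tex12 (SE 0.42), 0.66 for Hormad1 (SE 0.44), 0.64 for Syce1 (SE 0.37) and 0.51 for Sycp2 (SE 0.37). For Rec8 and Stag3 it was -0.00 and 0.00, and for Syce2 -0.05. No gene passed by limma (0% called; 344 at an unadjusted p under 0.05), and every member had an adjusted p of 1, so a smaller gap at day 12 was not shown for any member.

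From day 9 to day 12, 9 of the 10 genes were higher with all 3 vectors, against 20.9% of all genes, and Syce2 was the exception. In the fit the same 9 were above 0, as were 50.8% of all genes. Rec8 is among them by log2 differences of only 0.05, 0.01 and 0.03 with hairpin 1, hairpin 2 and control. Its second probe, A_52_P459732, had 0.13, -0.79 and 0.18 with the same vectors, and -0.16 in the fit. The median log2 difference, day 12 minus day 9, was 0.61 over the members and 0.01 over all genes. Sycp1 was 2.8-fold and Sycp2 2.54-fold higher at day 12, and Syce1, Tex12, Hormad1 and Smc1b were 1.47- to 1.69-fold higher. Rec8, Stag3 and Syce2 stood within 1.08-fold of their day 9 level. The arrays of each day lay together on 1 slide, so effects of day and of slide cannot be told apart.

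Sycp1 had a log2 difference of 1.48 (SE 0.29, limma adjusted p 0.129) between the days, with signal 2.55-fold higher with hairpin 1, 4.57-fold with hairpin 2 and 1.88-fold with the control vector. Sycp2 had 1.35 (SE 0.18, limma adjusted p 0.0774), at 1.40, 1.63 and 1.01 on the log2 scale with the same vectors. With the vector as a replicate block Sycp2 passed, with an adjusted p of 0.0279, as 1 of 326 genes (1.61% called), and Sycp1 had an adjusted p of 0.0597. For Syce1 the signal at day 12 was 2.13-, 1.80- and 1.26-fold that of day 9 with hairpin 1, hairpin 2 and control, and its log2 difference was 0.76 (SE 0.19, limma adjusted p 0.211). For Tex12 it was 1.65-, 2.22- and 1.19-fold, with a log2 difference of 0.71 (SE 0.22, limma adjusted p 0.282). With normexp and its offset of 50, the log2 differences were 0.72 for Sycp1, 0.43 for Sycp2 and 0.36 for Tex12. In these 4 genes the control vector had the smallest ratio of the 3 vectors on the brightest probe. The same held for Sycp3, Hormad1 and Smc1b, but not for Rec8, Stag3 or Syce2. On the dimmer Sycp2 probe hairpin 1 had the smallest, at 1.61-fold against 1.82-fold with control. These ratios rest on the same values as the difference of the knockdown effect between days, which did not pass for any member.

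Hormad1 had a log2 difference between the days of 0.66 (SE 0.22, limma adjusted p 0.324) and Smc1b one of 0.56 (SE 0.21, limma adjusted p 0.380). Sycp3 had 0.31 (SE 0.14, limma adjusted p 0.472), with a control ratio of 1.05-fold. Stag3, Rec8 and Syce2 had 0.11, 0.03 and -0.05, each with an SE of 0.16. All 3 day 12 arrays stood above all 3 day 9 arrays for Sycp2, Syce1 and Hormad1, against 9.11% of all genes. Over all genes 30 passed by limma (0.148% called), none of them a member, while higher genes with an unadjusted p under 0.05 were 7.32% of all genes and 6 of the 10 members. Cohesin genes had a median of 0.11, axis genes 0.66 and central region genes 0.73.

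**Figure D4:**
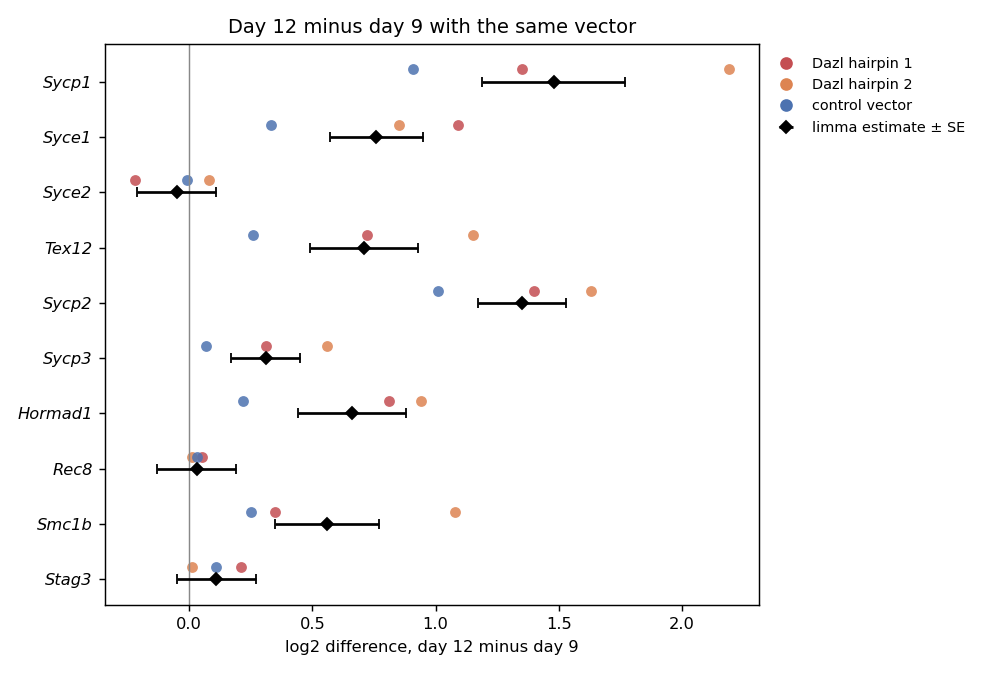
Log2 difference of day 12 minus day 9 (horizontal axis) for each gene with hairpin 1, hairpin 2 and the control vector (coloured points), and the limma estimate with its SE as a black diamond and bar. Estimates run from 1.48 for Sycp1 to -0.05 for Syce2, and 9 genes have all 3 points above 0.

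Over the 6 arrays, the members' mean centred log2 level was -0.52 and -0.61 with hairpins 1 and 2 at day 9, against 0.24 with the control vector, and 0.09 and 0.24 at day 12, against 0.56. The day 12 hairpin arrays thus stood near the day 9 control array. Sycp3, Sycp1, Sycp2, Tex12, Smc1b and Syce1 followed the mean of the other members closely, with Pearson's r of 0.91 to 0.98 over the 6 arrays. The correlation was 0.81 for Hormad1, 0.59 for Rec8, 0.53 for Stag3 and 0.38 for Syce2. These are descriptions over 6 arrays that share 3 vectors and 2 days.

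Among 1613 other genes well above background on all 6 arrays and with an SD of at least 0.5 over them, the 5 whose levels were most like that mean were Dnajb3 (Pearson's r 0.986), LOC231591 (0.98), Efcab2 (0.979), Scml2 (0.978) and Slc25a31 (0.977). Dnajb3 stood at -1.81 and -2.25 with hairpins 1 and 2 at day 9, against -0.93 with control, and at -1.15 and -1.01 at day 12, against -0.57. Slc25a31 had a wider range, at -2.89 and -3.06, against -1.30, at day 9 and -0.92 and -0.66, against 0.21, at day 12. In Slc25a31 the 2 day 12 hairpin arrays lay above the day 9 control array, and in Dnajb3 slightly below it.

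Between the 2 hairpins the members split in both directions. The log2 difference, hairpin 2 minus hairpin 1 with day as a term, had a median of 0.13 and ran from -0.45 for Sycp1 (SE 0.31) to 0.40 for Hormad1 (SE 0.22). The direction of the median and of some members, Sycp1 among them, depended on single arrays or on the background correction. The median was -0.14 without hairpin 2 of day 12, and Sycp1 stood at 0.08 without hairpin 2 of day 9 and at 0.13 with normexp. Sycp2 also turned with normexp, to 0.31. Hormad1 kept its direction, at 0.19 to 0.62 with arrays left out. No member passed, with limma adjusted p from 0.485 to 0.967, and 2 of all genes did (0.00989% called). Lower with hairpin 2 at both days were Sycp1, Sycp2, Tex12 and Rec8, against 26.1% of all genes. Higher with hairpin 2 at both days were Syce1, Syce2, Stag3 and Hormad1, against 32.7%. Each vector had its own place on the slides, so effects of vector and of place cannot be told apart.

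Other genes of the same structures were counted from lists of known members. Of 9 other synaptonemal complex and axis genes, 8 were lower with knockdown in the fit (median -0.20), 3 of them at an unadjusted p under 0.05, and none passed. Tex11, an X-linked gene needed for synapsis and crossovers, had a log2 difference of -0.98 (SE 0.24, limma adjusted p 0.323), at levels of -5.75 and -6.52 with hairpins 1 and 2 at day 9, against -4.98, and of -5.24 and -5.13 at day 12, against -4.37. Its probe was dimmer on every array than those of Sycp1 and Sycp2, whose differences narrowed with normexp. Fkbp6, whose protein lies on the synaptonemal complex and acts in the piRNA pathway, had 2.90 and 3.09, against 4.03, at day 9 and 4.43 and 4.54, against 4.87, at day 12. Tex11 and Fkbp6 each had their 2 knockdown arrays below the control on each day. The log2 difference of Fkbp6 was -0.71 (SE 0.19, limma adjusted p 0.358) with knockdown. Mei4, a partner of the recombination machinery, had -0.57 (SE 0.60) but was well above background on only 4 arrays, with neither hairpin at day 9 among them. Hspa2, a chaperone of spermatocytes, had -0.32 (SE 0.13).

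Between the days, 6 of these 9 genes were higher at day 12 (median 0.15). Fkbp6 had a log2 difference of 1.28 (SE 0.18, limma adjusted p 0.0912), which passed with the vector as a replicate block (adjusted p 0.0396). Mei4 had 1.19 (SE 0.57), Tex11 0.84 (SE 0.23) and the central element gene Syce3 0.54 (SE 0.22), and none of them passed. The difference of Mei4 rests in part on the day 9 hairpin arrays, where its probe was not well above background. Iho1 and Ankrd31 are not analysed here.

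Cohesin subunits and regulators that mitotic cells also use were nearer to 0. Of 14 measured, 11 were lower and 3 higher with knockdown (median -0.10), and none had an unadjusted p under 0.05. The furthest below were Stag1 at -0.32 (SE 0.14) and Rad21 at -0.31 (SE 0.21), followed by Hdac8, the SMC3 deacetylase, at -0.29 and Smc3 at -0.27. Between the days 9 were lower and 5 higher (median -0.03), and the furthest from 0 were the cohesin regulator Pds5a at 0.29 and the acetyltransferase gene Esco2 at -0.29. Rad21l is not analysed here. Of the 5 genes that protect or cut cohesin, 3 were lower and 2 higher both with knockdown (median -0.02) and between the days (median -0.03). Meikin, a meiotic kinetochore gene, had -0.52 (SE 0.31) with knockdown and 1.18 (SE 0.30, limma adjusted p 0.204) between the days, where it passed with the vector as a replicate block (adjusted p 0.0396). It was not well above background with hairpin 1 at day 9. Sgo2a, the protector of centromeric cohesin, had -0.44 (SE 0.24) with knockdown.

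Of 8 genes that tie meiotic telomeres to the nuclear envelope, 6 were lower with knockdown (median -0.15) and 7 higher at day 12 (median 0.25), with none past the test. Terb1 had -0.63 (SE 0.26) with knockdown, and Majin had 0.65 (SE 0.24) between the days. Of 8 regulators of meiotic entry, 6 were lower with knockdown (median -0.11), and 5 were higher and 3 lower at day 12 (median 0.04). Stra8 stood at 6.42 and 5.82 with hairpins 1 and 2 at day 9, against 7.13 with the control vector, and at 7.42 and 6.92 at day 12, against 7.66. Its knockdown arrays were below the control on each day, with a log2 difference of -0.75 (SE 0.26, limma adjusted p 0.440), and its difference between the days was 0.88 (SE 0.24, limma adjusted p 0.244). Dmrt1, a transcription factor of male germ cells, had -0.76 (SE 0.16) with knockdown, Meioc, which prolongs meiotic prophase, -0.39 (SE 0.19) and the retinoic acid receptor gene Rarg 0.72 (SE 0.26). Meiosin, Zglp1 and Rbm46 are not analysed here.

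Of 19 repressors of germline gene promoters, 12 were lower and 7 higher with knockdown (median -0.09), and none passed. The DNA methyltransferase genes Dnmt3b and Dnmt3a had -0.57 (SE 0.18) and -0.55 (SE 0.20), and Tfdp1, a partner of E2F proteins, had -0.49 (SE 0.17). Between the days 9 were lower and 10 higher (median 0.01), with Max and L3mbtl2 at -0.38 each (SE 0.14 and 0.31).

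**Figure D5:**
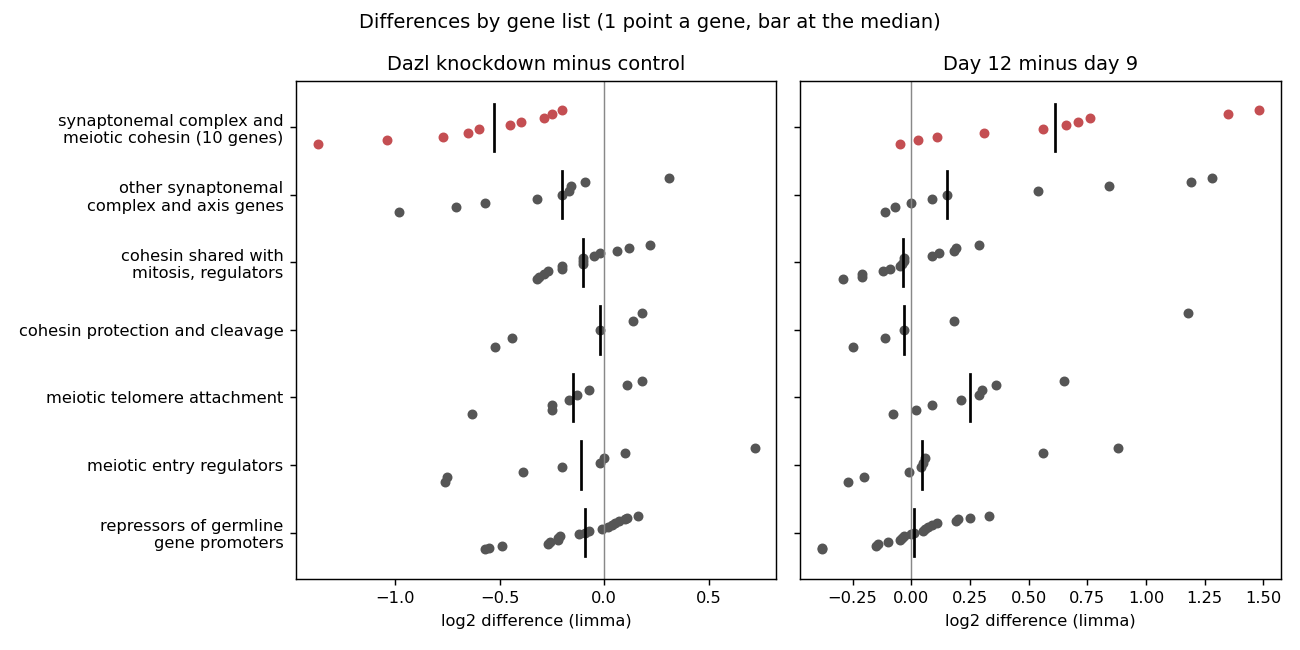
Log2 difference in the limma fit (horizontal axes), knockdown minus control on the left and day 12 minus day 9 on the right, with 1 point for each gene and a bar at the median of each list. The 10 synaptonemal complex and meiotic cohesin genes (red) have medians of -0.53 and 0.61, and the medians of the other 6 lists lie between -0.20 and -0.02 on the left and between -0.03 and 0.25 on the right.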

How the data were processed

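Total RNA of sorted cells was hybridised to 6 one-colour Agilent whole-genome mouse arrays. Per the file headers, the deposited spot intensity values came from Feature Extraction 9.1.3.1 with detrending, background subtraction and surrogate values for spots not above background, and without normalization between arrays. A deposited table of the authors held a ratio, the background-subtracted signal over a constant of its array with a median of 1 in each column. Its quality score, whose making the authors did not state, served only to match its 41529 entries to spots within 1e-05.

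Here log2 processed intensities were set to 0 at each array's 75th percentile over 43379 spots that were not controls (41174 probes), and 30190 probes well above background on at least 2 arrays gave 20220 genes by the brightest probe. The accession named 22951 probes, a symbol or synonym 9755, and the array's own annotation the other 8468. Linear models were fitted over all genes with limma 3.58.1 in R 4.3.3, two-sided, and called at a Benjamini-Hochberg adjusted p under 0.05. Knockdown and day were fitted together. A fit with 4 groups gave effects within days, where the lone control array is assumed to vary like the knockdown pairs, and a fit of vector and day gave the hairpin contrast. The scripts were tested on simulated data with independent noise and knockdown effects larger than that of any member. That test does not cover effects of the size reported here.

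Each day's arrays shared 1 slide, and control, hairpin 1 and hairpin 2 took positions 2, 3 and 4. Deviations from the day's mean correlated across genes at r of 0.38, 0.54 and 0.26 between arrays of the same vector, and at -0.34 to -0.02 between vectors, so the vector was also fitted as a replicate block. The block was a fixed term for the hairpin, which gives each vector its own mean and makes its days the replicates. The members and lists were chosen with earlier results of these data known. Named were all members with every probe, Dazl, up to 4 genes of each list by size of difference in the knockdown and day contrasts (2 for marker lists), and the 5 genes most like the members. Other alternatives were normexp background correction, quantile normalization, filters on dim probes, the mean of a gene's probes, the authors' table, limma's trend and robust options, and each array left out in turn. Precision is limited by how few arrays there are.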

Additional observations from a re-analysis of the deposited data

Results flagged for a closer look

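On the second Hormad1 probe, A_51_P497870, the hairpins lay on opposite sides of the control at both days. Hairpin 1 minus control was -0.55 at day 9 and -0.25 at day 12 on the log2 scale, and hairpin 2 minus control was 0.02 and 0.28. The difference at day 9 with hairpin 2 is close to 0. The contrast of hairpin 2 with hairpin 1, which shares no control array, was 0.54 (SE 0.18) with a limma adjusted p of 0.391 over probes, and hairpin 2 was higher on both days. On the brighter Hormad1 probe both hairpins were below control at day 9.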

How the results depend on the processing

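For the knockdown contrast, 139 of 140 values of single members kept their sign and stayed short of the threshold over the alternatives; Hormad1 ran from -0.58 to 0.08 with arrays left out, turning without the day 9 control. The members' median ran from -0.77, without the day 12 control, to -0.31, without the day 9 control, as the arrays were left out in turn. Genes past the threshold, 0 in the fit reported, were 2 with normexp, 8 with all arrays above background, 1 with the mean of a gene's probes, 2 with limma's trend and robust options, 20 with the replicate block for the vector and 0 with any array left out. All 14 member probes that passed the filter were below 0 in the knockdown contrast, as were 16107 of all 30190 probes. Probes of the same gene are among the 14, so they are not independent.

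For day 12 minus day 9, the members' median was 0.39 with normexp and ran from 0.40 to 0.80 with arrays left out. Genes past the threshold, 30 in the fit reported, were 1 with normexp, 14 with no filter, 326 with the replicate block, of which Sycp2 was the 1 member, and 0 to 20 with arrays left out. The day difference of Syce2 turned to 0.02 with normexp, 0.00 without hairpin 2 of day 9 and 0.09 without hairpin 1 of day 12, in a range of -0.17 to 0.09. That of Rec8 turned to -0.07 with the mean of its probes, -0.03 in the authors' table, and -0.06 and -0.07 without the same arrays, and that of Stag3 to -0.01 without hairpin 1 of day 9.

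Within day 9 the members' knockdown median was -0.54 with normexp and -0.77 to -0.74 with arrays left out, and 309 genes, 2 of them members, passed with the replicate block and 1 gene in the authors' table. Within day 12, 319 genes passed with the replicate block, and the median ran from -0.43 without hairpin 2 of day 12 to -0.12 without hairpin 1 of day 12. The difference between the days had a median of 0.17 with normexp and 0.36 to 0.54 with arrays left out, and 62 genes passed with the replicate block and 1 in the authors' table. A contrast within a day could not be fitted without the control of that day, nor the difference without both; the other day's control, alone in its group, does not enter the contrast within a day. The replicate block changed no other call of a member.

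For hairpin 2 minus hairpin 1, genes past the threshold, 2 in the fit reported, were 101 with normexp, 1 with quantile normalization, 1 with no filter, 50 with all arrays above background, 19 in the authors' table, 71 with the trend and robust options, and 0 to 802 with arrays left out, the 802 without either control array in a fit with 1 residual degree of freedom. The members' median then ran from -0.14 without hairpin 2 of day 12 to 0.23. With normexp Sycp1, Sycp2 and Tex12 turned to 0.13, 0.31 and 0.00. Without hairpin 1 of day 9 Syce1 turned to -0.01, without hairpin 2 of day 9 Sycp1 and Tex12 to 0.08 and 0.03, and without hairpin 2 of day 12 Sycp3 and Smc1b to -0.16 and -0.12. The ranges with arrays left out were -0.98 to 0.08 for Sycp1, -0.63 to 0.03 for Tex12, -0.01 to 0.48 for Syce1, -0.16 to 0.21 for Sycp3 and -0.12 to 0.66 for Smc1b.

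With normexp the median of all genes stood at 0.11 for knockdown, -0.11 for day, 0.15 for knockdown at day 9, -0.12 for the difference between days and 0.18 for the hairpins. Relative to it, the members' medians were 0.51 for day, -0.70 for knockdown at day 9 and 0.29 for the difference, and Sycp1, Sycp2 and Tex12 stood at -0.05, 0.13 and -0.18 between the hairpins. Each day has 1 control array, so every knockdown difference within a day rests on it, and of the members the dim genes Sycp1 and Sycp2 moved furthest with normexp. The cause of the other shifts was not tested.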
